A study of Homo sapiens with 16 samples.

Results

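Sorafenib is a kinase inhibitor given to patients with hepatocellular carcinoma (HCC), and 9 of the kinases it is known to inhibit are described here across Sorafenib-sensitive and Sorafenib-resistant HCC cells. The genes were chosen as a list from the known pharmacology of the drug, with earlier results of these data known. They are 9 of the 26258 genes in the deposited table. They comprise the RAF kinases BRAF and ARAF, the VEGF receptors FLT1, KDR and FLT4, the PDGF receptors PDGFRA and PDGFRB, the stem cell factor receptor KIT, and RET, the receptor kinase of the GDNF family.

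RAF kinases carry the signal of RAS to the kinases MEK and ERK, which drive proliferation. The receptor kinases sit at the cell surface and feed RAS when a growth factor binds. In liver, VEGF receptors are known from endothelial cells and PDGF receptors from stellate and other mesenchymal cells, KIT is known from mast and progenitor cells, and RET from neural and neuroendocrine cells, while RAF kinases are used by nearly every cell type.

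RNA of the established HCC lines Huh7 and Hep3B was sequenced in 16 libraries, 2 for each of 8 groups. Parental cells and cells labeled DMSO were not given Sorafenib. IR cells had been selected under rising drug concentrations and CR cells under a constant high one, and the labels of both give 7 μM Sorafenib. Each comparison of resistant with parental cells therefore holds both exposure to the drug and resistance to it, and each group stands for 1 cell line, not for several tumors. The culture and treatment notes name Huh7 cells, and what was done to the DMSO cells is not described in the study's text. The methods give RNA extraction in biological triplicates, while 2 libraries per group were analysed here. The limma p-values rest on the spread between replicate libraries pooled over the 8 groups, not on that of the 2 groups compared.

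Values are CPM, reads of a gene scaled to the total of its library. Library totals lay between 46613302 and 76860251 reads, so 1 CPM stood for 46.6 to 76.9 reads, and 0 reads in a library leave room for 3, or 0.039 to 0.064 CPM, by counting error only. Replicates differed most in Huh7 DMSO and Huh7-IR cells, with an SD of the difference in log2(CPM + 1) of 0.571 and 0.566, against 0.236 to 0.310 in the other groups. The hepatocyte origin given by the labels was checked on 14 markers, of which 10 reached 1 CPM in all 16 libraries. Their summed level was 8923 and 11420 CPM in the Huh7 parental libraries, 137 to 603 CPM in Huh7-IR and 1485 to 3089 CPM in Huh7-CR cells. In Hep3B it was 19992 to 25199 CPM in parental, 3835 to 11034 CPM in IR and 2362 to 3670 CPM in CR cells.

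Of the 9 kinases, 4 or 5 were expressed in any group and 4 were not expressed in any. Expressed means here at least 1 CPM in both libraries of a group, which 47.9% to 50.2% of all genes reached. BRAF, ARAF and PDGFRA were expressed in all 8 groups. PDGFRB was expressed in every group but Huh7 parental cells, and FLT1 was expressed in Huh7 parental and Huh7 DMSO cells. KDR, FLT4, KIT and RET stayed under 1 CPM in all 16 libraries. The count was 5 in Huh7 DMSO cells and 4 in each of the other 7 groups, with FLT1 in the place of PDGFRB in Huh7 parental cells.

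**Figure D1:**
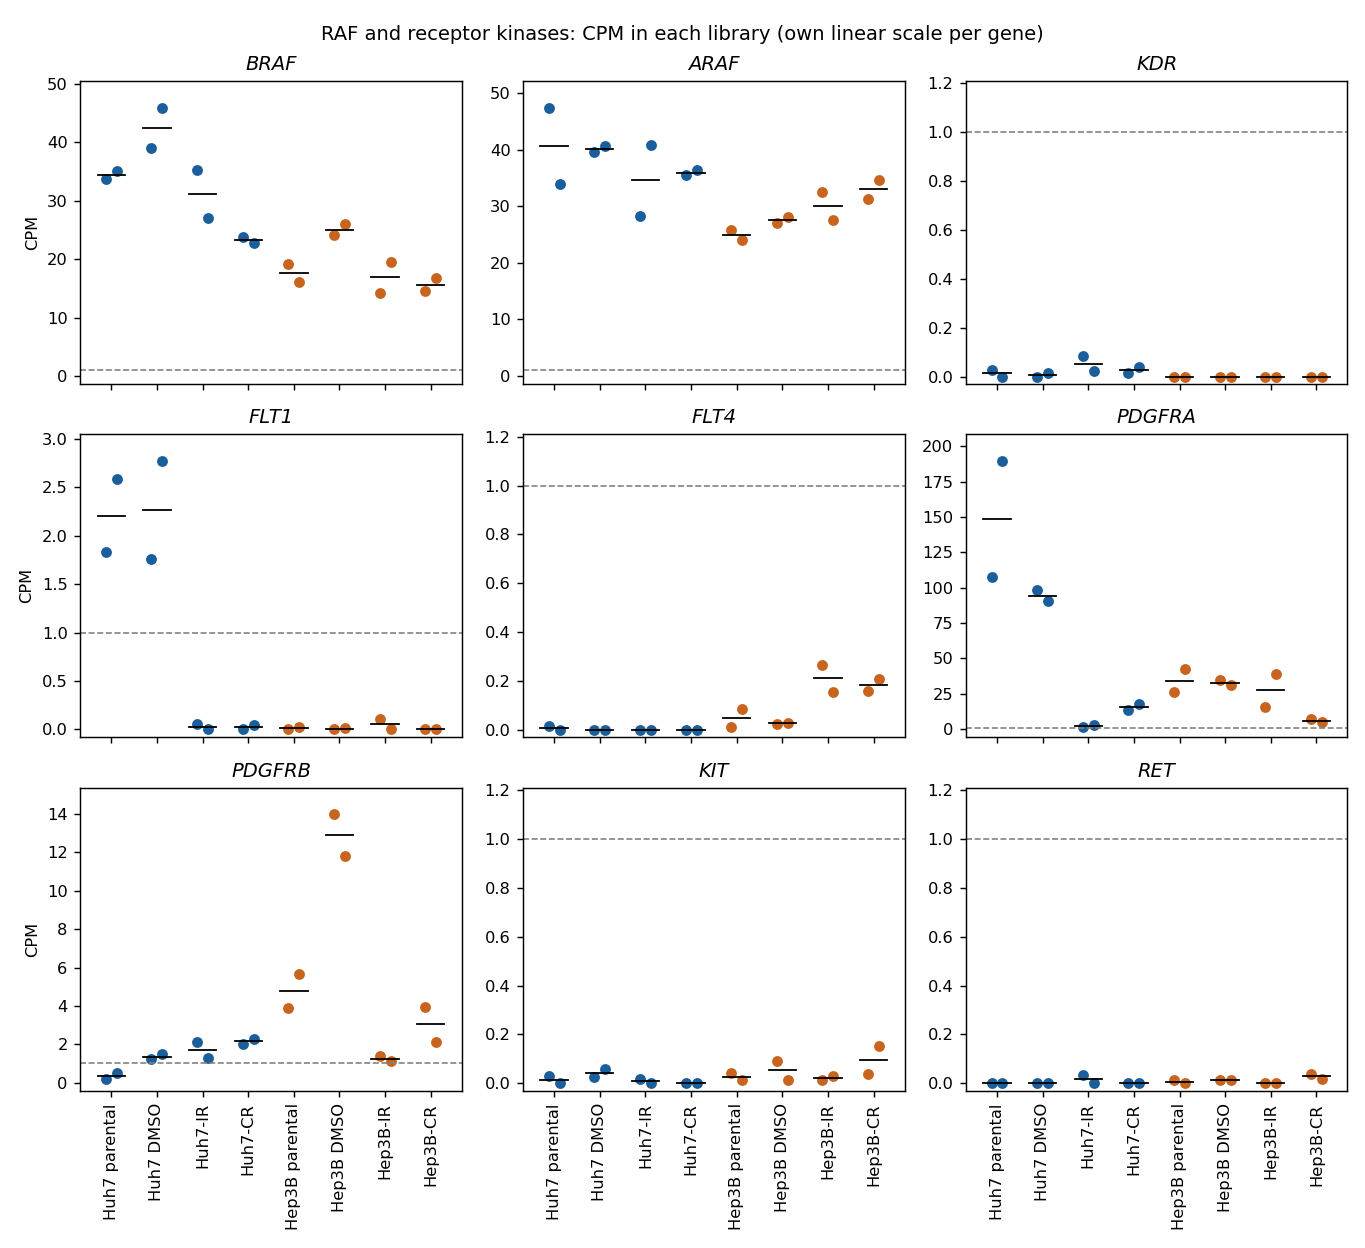
CPM of the 9 kinases (vertical axis, linear, own scale for each gene) in the 8 groups (horizontal axis), where points are the 2 libraries, bars their mean, blue Huh7, orange Hep3B and the dashed line 1 CPM. The plot shows BRAF and ARAF between 14.2 and 47.4 CPM in every library, FLT1 above 1 CPM in 4 Huh7 libraries, PDGFRA from 1.81 to 189 CPM, and KDR, FLT4, KIT and RET under the line everywhere.

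Among the RAF kinases, BRAF, the family member with the highest kinase activity, was read at 33.7 and 35.1 CPM in Huh7 parental cells and at 39.0 and 45.9 CPM in Huh7 DMSO cells. It was at 35.2 and 27.0 CPM in Huh7-IR and at 23.7 and 22.7 CPM in Huh7-CR cells. The Huh7-CR libraries lay below all other Huh7 libraries, while those of Huh7-IR overlapped the parental ones. In Hep3B cells BRAF was at 19.2 and 16.1 CPM in parental, 24.0 and 25.9 CPM in DMSO, 14.2 and 19.5 CPM in IR and 14.5 and 16.8 CPM in CR cells. The parental, IR and CR libraries of Hep3B overlapped, and the 2 DMSO libraries lay above them.

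ARAF, a RAF kinase of lower activity encoded on chromosome X, varied least of the 5 kinases that were expressed, with a highest library at 1.97 times the lowest. It was at 47.4 and 33.9 CPM in Huh7 parental, 39.6 and 40.7 CPM in Huh7 DMSO, 28.3 and 40.9 CPM in Huh7-IR and 35.6 and 36.4 CPM in Huh7-CR cells. The Hep3B libraries were at 25.8 and 24.1 CPM in parental, 27.0 and 28.1 CPM in DMSO, 32.6 and 27.6 CPM in IR and 31.3 and 34.7 CPM in CR cells. The Huh7 parental and Huh7-IR libraries spanned those of the other Huh7 groups, DMSO lay just above CR cells, and in Hep3B the resistant libraries overlapped the DMSO ones or lay above them.

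BRAF fell in Huh7-CR cells, with a difference of -0.55 on the log2(CPM + 1) scale (limma, adjusted p = 0.032), or 1.59-fold by edgeR on the recovered reads. This call was lost when any of the 4 libraries was left out, with adjusted p from 0.0884 to 0.130, and over 14 alternatives the adjusted p ranged from 0.00328 to 0.130. The call was also lost with the line fitted alone (limma, adjusted p = 0.0691) and under the authors' rule, which asks for a log2 change of at least 0.58. In Huh7-IR, Hep3B-IR and Hep3B-CR cells the BRAF differences from parental cells were -0.15, -0.07 and -0.16. Their 95% intervals were -0.56 to 0.25, -0.47 to 0.33 and -0.56 to 0.24. Against DMSO cells BRAF was called lower in Hep3B-IR (-0.56) and Hep3B-CR cells (-0.65), but not in Huh7-IR cells (limma, adjusted p = 0.0318 and 0.0153 in Hep3B). ARAF did not pass the test in any of the 4 comparisons with parental cells, with differences from -0.23 in Huh7-IR to 0.39 in Hep3B-CR cells. It was called in Huh7-IR cells without Huh7-IR replicate 2 (-0.49, adjusted p = 0.0485), the difference ranging from -0.49 to 0.03 over 14 alternatives, and in Hep3B-CR cells with the line fitted alone (adjusted p = 0.0306). The median difference of all genes in Huh7-IR cells was 0.19 in CPM and 0.04 after TMM scaling.

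Levels of different genes were compared per kilobase of coding sequence, because the annotation used here gives BRAF a much longer 3′ end than ARAF. In Huh7 parental cells ARAF stood at 22.4 and BRAF at 15.0 CPM per coding kb. In Hep3B-CR cells the order was the same, at 18.1 and 6.81 CPM per coding kb. Reads were counted over all exons, and the size of the gap depends on the length used. Per kb of exon, ARAF stood at 13.5 and BRAF at 2.39 CPM in Huh7 parental cells. Exons of BRAF share 1239 bases with NDUFB2 on the opposite strand. The libraries were stranded, but whether the counting used the strand is not given in the sources used here.

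Among the VEGF receptors, FLT1, which binds VEGFA, VEGFB and PGF, was expressed in Huh7 cells without Sorafenib and was at or near 0 elsewhere. It was at 1.83 and 2.59 CPM in Huh7 parental and at 1.77 and 2.77 CPM in Huh7 DMSO cells. It was at 0.050 and 0 CPM in Huh7-IR, at 0 and 0.039 CPM in Huh7-CR, and at 0 to 0.107 CPM in the 8 Hep3B libraries. The 4 libraries of untreated Huh7 cells lay above the other 12, with no overlap.

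In reads, FLT1 had 126 and 193 in the Huh7 parental libraries, against 3 and 0 in Huh7-IR and 0 and 3 in Huh7-CR cells. The pooled ratio of parental to Huh7-IR cells was 79.3 (95% exact interval 26.9 to 387, counting error only) and that of parental to Huh7-CR cells was 105 (35.5 to 510). FLT1 fell with a difference of -1.64 in both on the log2(CPM + 1) scale, which understates the change of a gene this low. It passed the filter of the test, 1 CPM in 2 libraries, only through the Huh7 parental and DMSO libraries in which it was high. Its limma calls restate these levels, and no test is read from them.

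Of 10 endothelial markers, 7 were under 1 CPM in every library, among them TEK, TIE1, VWF and CLDN5. PECAM1 was at 0.99 and 1.54 CPM in Huh7 parental, 1.97 and 4.40 CPM in Huh7 DMSO, and 0.03 to 0.31 CPM in resistant Huh7 cells. CDH5 was at or near 0 but for 1.49 CPM in 1 Huh7 DMSO library. The summed level of the list was 2.21 and 2.30 CPM in Huh7 parental cells and 6.75 to 13.0 CPM in resistant Huh7 cells, where ESAM made up most of it. The part of these markers in the FLT1 result was not tested.

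The start of FLT1, on the minus strand of chromosome 13, is shown because the gene was read in untreated Huh7 cells and was at or near 0 in all other groups. The sequence is RefSeq's, build GRCh38.p14, at chr13:28495129-28495378, and gives the 250 bases before the transcript start, 5′ to 3′ on the strand of the gene. Capitals mark motifs searched on both strands, none of which overlapped another in the windows shown, and positions are counted back from the transcript start.

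FLT1: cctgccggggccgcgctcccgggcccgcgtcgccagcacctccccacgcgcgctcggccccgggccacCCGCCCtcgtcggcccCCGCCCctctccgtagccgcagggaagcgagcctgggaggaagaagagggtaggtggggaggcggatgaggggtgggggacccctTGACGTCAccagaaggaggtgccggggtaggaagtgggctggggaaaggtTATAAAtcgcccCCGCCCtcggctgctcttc

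The letters TGACGTCA, those of a cAMP response element, stood at -81 to -74 and were found in 1.65% of 35116 RefSeq promoter windows of the same length. The core promoter motif TATAAA stood at -31 to -26 and was found in 10.7% of windows. GGGCGG, a GC box, occurred 3 times on the opposite strand and was found in 42.6% of windows. A match is a description of letters and does not show that a factor binds there.

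KDR, the main signaling receptor for VEGFA, had 13 reads in all 16 libraries together and at most 5 in a library. All 13 were in Huh7 libraries, at 0 to 0.083 CPM, and the 8 Hep3B libraries held 0 reads, which allows up to 0.00528 CPM in their pool. At this depth KDR was not detectable in Hep3B cells.

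FLT4, the receptor for VEGFC and VEGFD, had 66 reads, of which 65 were in Hep3B libraries. In Hep3B it had 20 and 11 reads in IR and 12 and 11 in CR cells, against 1 and 6 in parental and 2 and 2 in DMSO cells. The 4 resistant Hep3B libraries lay above the other 4, with no overlap, at 0.156 to 0.268 CPM. The pooled ratio was 5.31 (95% exact interval 2.74 to 11.3, counting error only), at levels under 0.3 CPM throughout. FLT4 did not enter the main test. Without the filter limma called it in both resistant Hep3B lines, where 20.7% (IR) and 25.2% (CR) of all genes were called. No test is read from FLT4 at these levels.

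**Figure D2:**
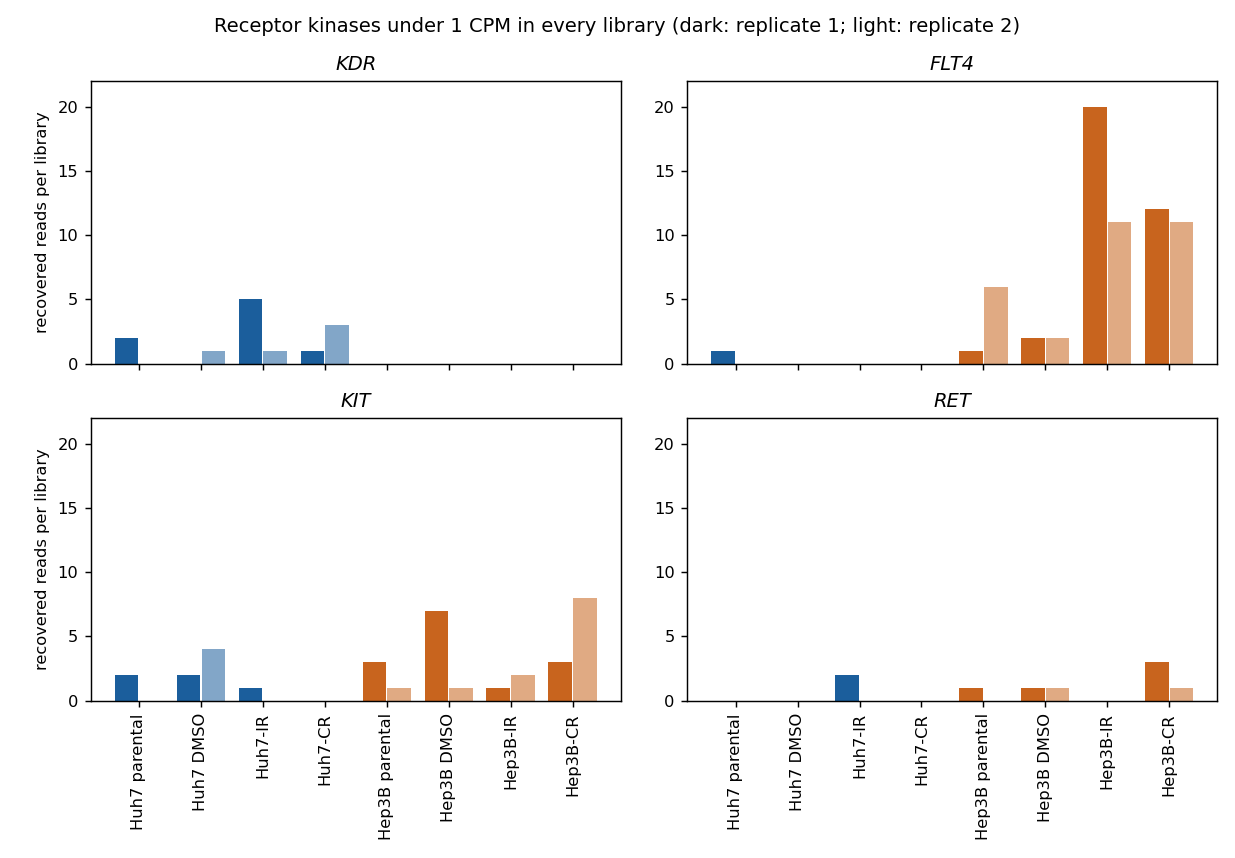
Reads per library (vertical axis, linear from 0) of KDR, FLT4, KIT and RET in the 8 groups (horizontal axis), dark bars replicate 1, light bars replicate 2, blue Huh7, orange Hep3B. The highest bar is 20 reads, for FLT4 in a Hep3B-IR library, where 1 CPM would be 74.7 reads, and the 4 resistant Hep3B libraries hold 11 to 20 FLT4 reads each.

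PDGFRA, which binds PDGF-AA and other PDGF dimers, was the most abundant receptor of the list in Huh7 parental cells and had the largest difference of the tested kinases on the log2(CPM + 1) scale, though by edgeR's fold FLT1 fell further in both resistant Huh7 lines (87.1-fold and 105-fold). It was at 107 and 189 CPM in Huh7 parental, 98.2 and 90.8 CPM in Huh7 DMSO, 13.8 and 17.6 CPM in Huh7-CR and 1.81 and 2.79 CPM in Huh7-IR cells. In Huh7 the resistant libraries lay far below the untreated ones and the 2 resistant groups did not overlap. Hep3B cells had it at 26.0 and 42.6 CPM in parental, 34.5 and 31.0 CPM in DMSO, 15.9 and 39.2 CPM in IR and 6.96 and 4.86 CPM in CR cells. The Hep3B-CR libraries lay below all other Hep3B libraries, while those of Hep3B-IR differed widely from each other and overlapped the parental ones.

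PDGFRA fell in both resistant Huh7 lines, with differences of -5.46 (SE 0.38) in IR and -3.11 (SE 0.38) in CR cells on the log2(CPM + 1) scale (limma, adjusted p = 4.32e-07 and 5.70e-05). By edgeR on the recovered reads these were 75.0-fold and 10.2-fold decreases. It also fell in Hep3B-CR cells, with a difference of -2.33 (SE 0.38) (limma, adjusted p = 0.00058), or 6.34-fold by edgeR. In Hep3B-IR cells the difference was -0.40 (95% interval -1.23 to 0.44) and did not pass (limma, adjusted p = 0.477).

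In bulk RNA, fewer cells that express PDGFRA and less RNA per cell cannot be told apart. In each line PDGFRA was lowest in the group with the lowest summed hepatocyte markers, Huh7-IR and Hep3B-CR. DMSO cells did not follow this order, since their summed markers, 20998 and 23518 CPM in Huh7 and 36359 and 43072 CPM in Hep3B, lay above those of parental cells while mean PDGFRA was 94.5 against 148 CPM in Huh7 and 32.7 against 34.3 CPM in Hep3B. The 2 Hep3B-IR libraries with 15.9 and 39.2 CPM of PDGFRA had ALB, the major protein secreted by hepatocytes, at 1682 and 5526 CPM, against 12152 and 13348 CPM in parental cells. Not all hepatocyte markers were lower in Hep3B-IR cells. Mean SERPINA1 was at 1606 against 469 CPM in parental cells, and mean TTR at 41.5 against 38.1 CPM. Mean HNF4A was at 187 against 195 CPM, and the remaining markers of the list were lower. The part of these markers in the PDGFRA result was not tested. Exons of PDGFRA share 1533 bases with a gene on the same strand that has no row in the table, so reads there could come from either.

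The order of the 8 groups by mean PDGFRA ran from Huh7 parental (148 CPM) and Huh7 DMSO (94.5 CPM) through Hep3B parental, DMSO and IR and Huh7-CR to Hep3B-CR (5.91 CPM) and Huh7-IR (2.30 CPM). The 4 groups from Hep3B parental to Huh7-CR overlapped each with the next, and the other neighbors were apart. Per kilobase of coding sequence, PDGFRA was at 45.4 CPM in Huh7 parental cells, above ARAF and BRAF, and at 0.703 CPM in Huh7-IR cells, below both.

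RefSeq lists 2 starts for PDGFRA on the plus strand of chromosome 4, at chr4:54229043-54229292 and chr4:54233710-54233959 for the 250 bases before each in GRCh38.p14. Both are shown because PDGFRA fell in 3 of the 4 resistant groups.

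PDGFRA upstream start: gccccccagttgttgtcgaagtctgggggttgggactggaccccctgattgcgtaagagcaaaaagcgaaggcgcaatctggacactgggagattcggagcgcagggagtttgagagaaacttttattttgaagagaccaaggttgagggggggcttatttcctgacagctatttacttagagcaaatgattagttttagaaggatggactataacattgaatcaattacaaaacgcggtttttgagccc

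PDGFRA downstream start: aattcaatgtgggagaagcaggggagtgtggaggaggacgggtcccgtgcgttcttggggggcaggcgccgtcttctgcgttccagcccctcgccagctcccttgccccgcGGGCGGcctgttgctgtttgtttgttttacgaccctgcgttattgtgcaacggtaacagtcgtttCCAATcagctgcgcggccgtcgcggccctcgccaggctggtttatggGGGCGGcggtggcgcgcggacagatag

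The downstream window held the letters CCAAT at -74 to -70 and GGGCGG at -139 to -134 and at -27 to -22, marked in capitals, and the upstream window held none of the 5 motifs searched. The motif CCAAT was found in 32.0% of the 35116 windows. The other motif searched was ACGTG, the core of a hypoxia response element, found in 18.5%, and its letters were in neither PDGFRA window. Which start the reads came from cannot be read from counts per gene.

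PDGFRB is the receptor for PDGF-BB and PDGF-DD and a usual marker of pericytes and stellate cells. Against parental cells it was called higher in both resistant Huh7 groups and lower in Hep3B-IR cells. It was at 0.189 and 0.522 CPM in Huh7 parental, 1.21 and 1.49 CPM in DMSO, 2.09 and 1.29 CPM in IR and 2.03 and 2.28 CPM in CR cells. In Huh7 the parental libraries lay below all others, and IR and DMSO cells overlapped. Its Hep3B levels were 3.90 and 5.67 CPM in parental, 14.0 and 11.8 CPM in DMSO, 1.37 and 1.12 CPM in IR and 3.95 and 2.13 CPM in CR cells. The Hep3B DMSO libraries were the highest of all 16 and the Hep3B-IR ones lay below every other Hep3B library.

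PDGFRB rose by 0.98 (SE 0.25) in Huh7-IR and by 1.23 (SE 0.25) in Huh7-CR cells on the log2(CPM + 1) scale (limma, adjusted p = 0.00478 and 0.00194). By edgeR these were 4.05-fold and 5.53-fold increases, from 13 and 39 reads in the parental libraries to 60 to 174 in the resistant ones. Against Huh7 DMSO cells in place of parental cells the differences were 0.18 and 0.42 and neither passed (limma, adjusted p = 0.570 and 0.194). The Huh7-IR call was also lost with quantile normalization, and over 14 alternatives its adjusted p ranged from 0.000122 to 0.570.

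PDGFRB fell in Hep3B-IR cells, with a difference of -1.35 (SE 0.25) (limma, adjusted p = 0.00139), or 4.04-fold by edgeR. In Hep3B-CR cells the difference was -0.54 and did not pass (limma, adjusted p = 0.105), and it passed with DMSO cells as the reference, with quantile normalization and without Hep3B-CR replicate 1. Over 14 alternatives its adjusted p ranged from 0.000148 to 0.611.

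Of 10 stromal markers, THY1 and POSTN were under 1 CPM in every library. The collagen genes COL1A1, COL1A2 and COL3A1 were at 0.56 to 5.16 CPM in Huh7 parental and at 14.3 to 405 CPM in resistant Huh7 cells. LUM, a matrix proteoglycan and the most abundant marker of the list in Huh7 parental cells, went the other way, from 277 and 329 CPM to 31.9 and 48.9 CPM in Huh7-IR and 117 and 231 CPM in Huh7-CR cells. In Hep3B, PDGFRB was called lower than in parental cells in IR cells only. COL1A1 in Hep3B was at 0.04 and 0.16 CPM in parental and 11.5 to 66.2 CPM in resistant cells. Mean COL3A1 was at 0.028 CPM in Hep3B parental, 0.048 CPM in IR and 0.016 CPM in CR cells. In Huh7 parental, IR and CR cells mean CSPG4 was 0.044, 13.0 and 3.81 CPM. In those of Hep3B it was 2.31, 1.12 and 2.15 CPM. In the same order mean RGS5 was 7.87, 16.6 and 27.3 CPM in Huh7 and 4.02, 6.97 and 9.57 CPM in Hep3B. Mean MCAM was 9.38, 14.6 and 1.94 CPM in Huh7 and 107, 66.2 and 145 CPM in Hep3B. The summed level of the list was 304 and 351 CPM in Huh7 parental, 368 to 369 CPM in Huh7-IR and 510 to 816 CPM in Huh7-CR cells. For Hep3B it was 108 to 172 CPM in parental, 104 to 162 CPM in IR and 212 to 250 CPM in CR cells. The part of these markers in the PDGFRB result was not tested.

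The start of PDGFRB is shown for comparison with that of PDGFRA, since the level of one rose and that of the other fell in resistant Huh7 cells. It lies on the minus strand of chromosome 5, at chr5:150155846-150156095 in RefSeq's GRCh38.p14.

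PDGFRB: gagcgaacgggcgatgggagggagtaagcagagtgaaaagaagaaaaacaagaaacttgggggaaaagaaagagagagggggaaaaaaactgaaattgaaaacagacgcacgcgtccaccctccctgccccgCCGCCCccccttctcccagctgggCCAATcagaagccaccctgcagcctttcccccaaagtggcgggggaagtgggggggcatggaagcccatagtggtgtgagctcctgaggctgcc

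CCAAT stood at -94 to -90 and GGGCGG on the opposite strand at -118 to -113, as marked in capitals. Both PDGFRB and the downstream start of PDGFRA thus held a CCAAT box and at least 1 GC box in this window, and neither held TATAAA.

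KIT, whose ligand is stem cell factor, had 35 reads in all 16 libraries and at most 8 in a library. The highest level was 0.152 CPM in a Hep3B-CR library whose replicate was at 0.040 CPM. RET, which signals with GFRA co-receptors, had 9 reads in all and at most 3 in a library, 7 of them in Hep3B cells. Of 10 mast and blood cell markers, 6 were under 1 CPM in every library, CPA3, TPSAB1 and MS4A2 among them. FCER1G, PTPRC and LAPTM5 reached 1 CPM in 6, 3 and 2 libraries, with highest levels of 1.73, 1.32 and 1.63 CPM. GATA2 was at 9.39 to 24.2 CPM in untreated and at 2.58 to 5.32 CPM in resistant cells.

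PDGFRA, KIT and KDR are neighbors on chromosome 4, at chr4:55095447-55164412, chr4:55523434-55606949 and chr4:55944648-55991762 in GRCh37. PDGFRA ends 359 kb before KIT starts, and KIT ends 338 kb before KDR. In Huh7 parental cells PDGFRA had 7373 and 14147 reads, KIT had 2 and 0, and KDR had 2 and 0.

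The comparisons of resistant with parental cells were made to find what differs in cells that grow under Sorafenib. Of the 9 kinases, 5 passed the filter on low values, BRAF, ARAF, FLT1, PDGFRA and PDGFRB, and the other 4 were not tested. In Huh7-IR cells 3 of the 5 were called, FLT1, PDGFRA and PDGFRB, where 57.5% of all 15019 genes tested were called. In Huh7-CR cells 4 of the 5 were called, the same 3 and BRAF, where 41.3% of all genes were called. PDGFRB alone was called in Hep3B-IR cells, against 32% of all genes. PDGFRA alone was called in the CR cells of Hep3B, against 38.8% of all genes. With 5 kinases tested, of which FLT1 passed the filter only through the untreated Huh7 libraries, nothing was read from these shares. The comparisons of IR and CR cells share their parental libraries.

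**Figure D3:**
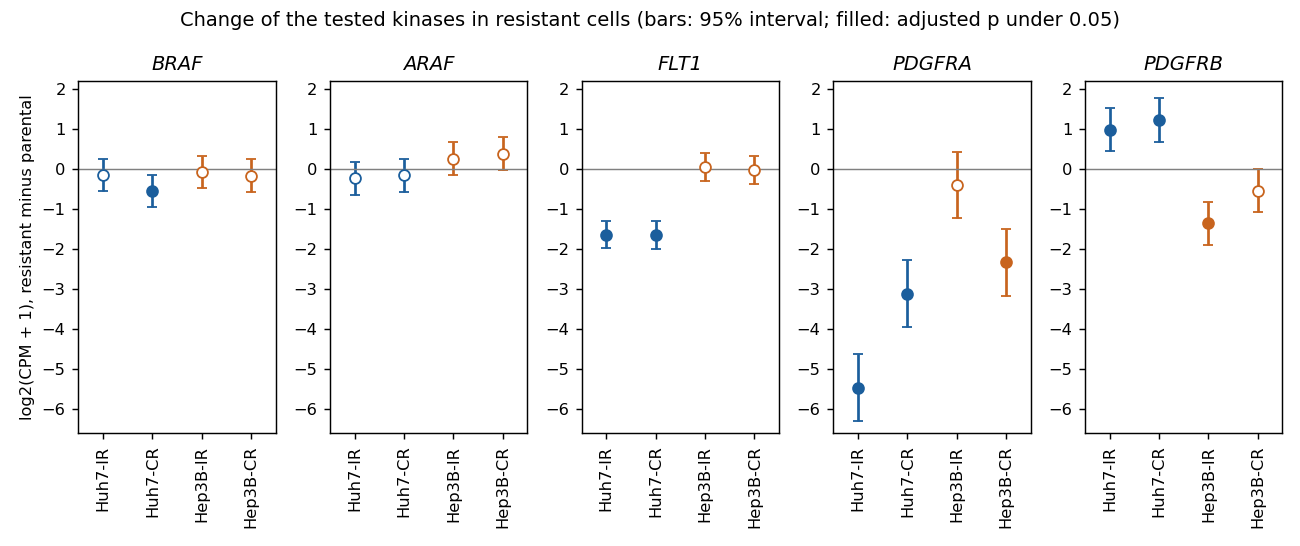
Difference in log2(CPM + 1) between resistant and parental cells (vertical axis) for BRAF, ARAF, FLT1, PDGFRA and PDGFRB in the 4 resistant groups (horizontal axis), with 95% intervals from limma, filled points for an adjusted p under 0.05, blue Huh7 and orange Hep3B. PDGFRA in Huh7-IR cells, at -5.46, lies lowest, and PDGFRB lies above 0 in both Huh7 groups and below 0 in both Hep3B groups, where the interval of Hep3B-CR cells reaches to 0.

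The lines were set against each other by the change averaged over IR and CR in Huh7 minus that in Hep3B, where 31.6% of all genes were called. PDGFRB and PDGFRA were called, while BRAF and ARAF were not. The PDGFRB change was 2.05 higher in Huh7 than in Hep3B (SE 0.30; limma, adjusted p = 0.000378). The PDGFRA change differed by -2.92 (SE 0.47; limma, adjusted p = 0.000653). FLT1 entered this comparison only through the untreated Huh7 libraries and was at or near 0 in every Hep3B group, so its difference of -1.66 restates those levels and no test is read from it. For BRAF and ARAF the differences were -0.23 and -0.51 and did not pass (limma, adjusted p = 0.471 and 0.113), though ARAF was called without Huh7 parental replicate 2 (-0.75) and without Huh7-IR replicate 2 (-0.64), with adjusted p from 0.0266 to 0.445 over 21 alternatives.

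The parental lines were compared with each other too, where 50.3% of all genes were called. Huh7 parental cells were higher than Hep3B parental cells in PDGFRA by 2.06, in BRAF by 0.93 and in ARAF by 0.66 on the log2(CPM + 1) scale, and lower in PDGFRB, by -2.09. All 4 passed the test (limma, adjusted p from 2.24e-05 to 0.0112). FLT1 was 1.65 higher in Huh7, which restates that it was read in untreated Huh7 cells, the libraries through which it passed the filter. The ARAF call was lost without Huh7 parental replicate 1 (difference 0.43, adjusted p = 0.131) and without Hep3B parental replicate 2 (0.62, adjusted p = 0.065), with a range from 0.000399 to 0.131 over 12 alternatives.

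Between the 2 resistant lines of Huh7, PDGFRA was 2.35 higher in CR than in IR cells (limma, adjusted p = 0.00305), or 7.34-fold by edgeR, and no other member was called, where 16% of all genes were. Between those of Hep3B the direction was the opposite, with PDGFRA lower in CR than in IR cells, a difference of -1.93 (limma, adjusted p = 0.00666). That call was lost without Hep3B-IR replicate 2 (-1.31) and without Hep3B-CR replicate 2 (-1.71), at adjusted p of 0.0752 and 0.0692, the range over 13 alternatives being 3.59e-06 to 0.0752. PDGFRB was 0.81 higher in Hep3B-CR than in Hep3B-IR cells at an adjusted p of 0.0483 in limma, and 10 of 13 alternatives lost that call, where 13.7% of all genes were called. Whether the CR and IR cells of the 2 lines differed from each other in PDGFRA was not tested.

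DMSO and parental cells were compared because neither had been given Sorafenib. In Huh7, limma called 0 of the 5 kinases, where 5.18% of all genes were called, and 1, PDGFRB, had an unadjusted p under 0.05. Its difference of 0.80 had an adjusted p of 0.0788 in limma, and edgeR (which called 5.71% of all genes) and DESeq2 each called it, with adjusted p from 0.00351 to 0.420 over 13 alternatives. In Hep3B, PDGFRB was 1.28 higher in DMSO than in parental cells (limma, adjusted p = 0.0264), the 1 kinase called, where 1.64% of all genes were. This call was lost in edgeR, which called 0.513% of all genes, with quantile normalization, with a pseudocount of 0.25 CPM, without the filter and without 3 of the 4 libraries, with adjusted p from 0.00561 to 0.270 over 13 alternatives. PDGFRB in DMSO cells lay above parental cells in all 4 libraries of the 2 lines.

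The genes around these kinases were taken from 3 lists of pathway genes. Of 39 genes of the RAF-MEK-ERK pathway, 38 were tested. In Huh7-IR cells 8 were called higher and 11 lower, where 36% of all genes were called higher and 21.5% lower. In Huh7-CR cells 10 were higher and 5 lower (24.5% and 16.8% of all genes). The IR cells of Hep3B had 6 higher and 6 lower (18.3% and 13.7%), and the CR cells had 7 and 9 (23.6% and 15.2%). The medians of the list were -0.08, 0.00031, 0.08 and 0.06, beside medians of all genes of 0.19, 0.07, 0.06 and 0.11 on the log2(CPM + 1) scale. With edgeR, which scales by TMM factors, the split for Huh7-IR cells was 6 genes up and 14 down (30.2% and 27.1% of all genes), and for Huh7-CR cells it was 7 up and 8 down (22.1% and 20.6%). Leaving out 1 library lowered the count of called genes by over 1.5 times in Huh7-CR cells, from 15 to 9 without either parental library, in Hep3B-IR cells from 12 to 6 without parental replicate 2 and in Hep3B-CR cells from 16 to 7 without parental replicate 2, to 9 without CR replicate 1 and to 10 without CR replicate 2.

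Several genes of this list were called the same way in all 4 comparisons. KSR1, a scaffold that holds RAF, MEK and ERK together, was at 1.95 and 1.39 CPM in Huh7 parental, 6.52 and 3.75 CPM in Huh7-IR and 14.5 and 11.3 CPM in Huh7-CR cells. Its Hep3B libraries were at 1.21 and 1.06 CPM in parental, 8.16 and 4.39 CPM in IR and 13.9 and 10.8 CPM in CR cells. The DMSO libraries were at 1.60 and 3.12 CPM in Huh7 and at 3.07 and 3.67 CPM in Hep3B. Resistant libraries lay above the parental ones in both lines, by 1.17 to 2.64 on the log2(CPM + 1) scale (limma, adjusted p from 5.59e-05 to 0.00621).

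PEBP1, the RAF kinase inhibitor protein, was at 440 and 482 CPM in Huh7 parental cells and at 213 to 268 CPM in the 4 resistant Huh7 libraries. In Hep3B it was at 306 and 318 CPM in parental and at 193 to 240 CPM in resistant cells. In DMSO cells PEBP1 was at 421 and 444 CPM in Huh7 and at 319 and 307 CPM in Hep3B. It fell in all 4 comparisons, with differences from -1.09 to -0.47 (limma, adjusted p from 1.66e-05 to 0.0117). IQGAP1, another scaffold of the pathway, rose by 0.57 to 1.07, and PPP1CC, a catalytic subunit of protein phosphatase 1, fell with differences from -0.71 to -0.37 (limma, adjusted p from 0.000174 to 0.0218 over both genes). IQGAP1 was at 296 and 241 CPM in Huh7 DMSO and at 239 and 206 CPM in Hep3B DMSO cells, below parental cells. PPP1CC was at 337 and 294 CPM in Huh7 DMSO cells, which spanned Huh7-CR cells at 311 and 315 CPM. Huh7 parental cells were at 395 and 417 CPM. Its Hep3B DMSO libraries were at 265 and 234 CPM, against 249 and 288 CPM in parental and 196 to 201 CPM in resistant cells.

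**Figure D4:**
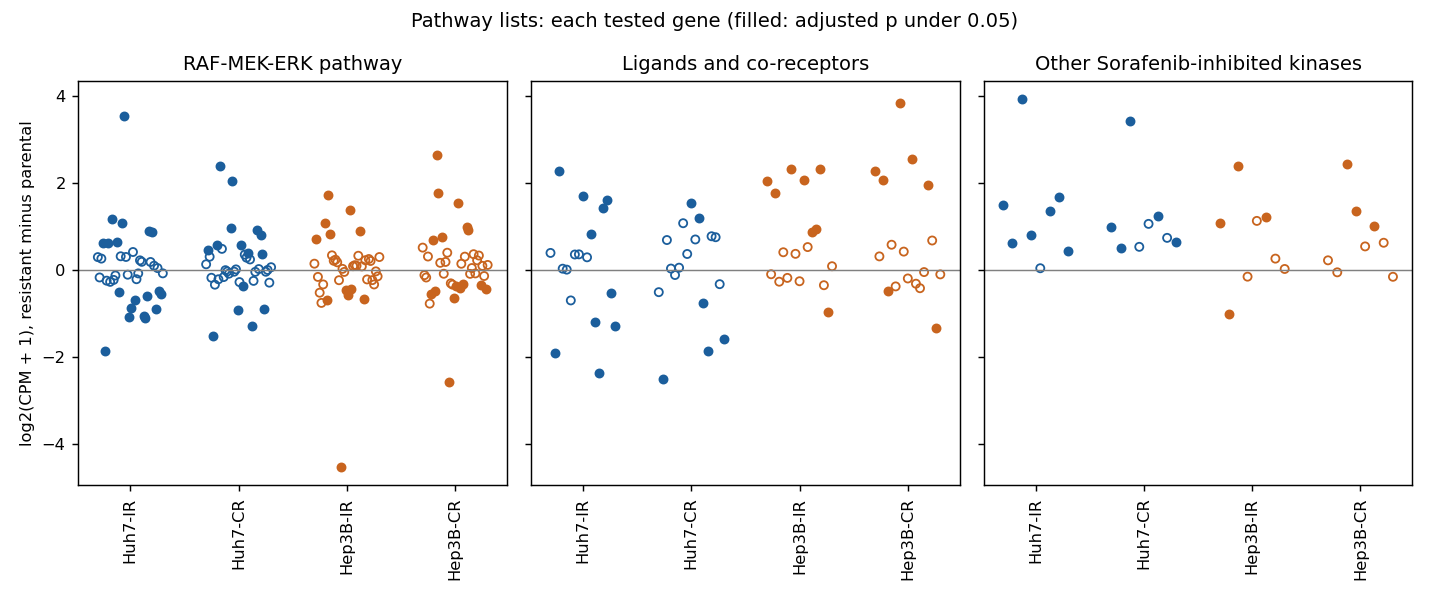
Difference in log2(CPM + 1) between resistant and parental cells (vertical axis) of each tested gene of the 3 lists (panels), by resistant group (horizontal axis), filled where the limma adjusted p was under 0.05, blue Huh7 and orange Hep3B. The RAF-MEK-ERK genes spread on both sides of 0 with medians from -0.08 to 0.08, and among the other kinases inhibited by Sorafenib the highest point in each group is DDR1, from 2.38 to 3.92.

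Of 22 ligands and co-receptors of the 9 kinases, 17 were tested. In IR cells of Huh7, 5 rose and 5 fell, where 36% and 21.5% of all genes were called, and 2 and 4 in Huh7-CR cells (24.5% and 16.8%). The IR cells of Hep3B had 7 higher and 1 lower (18.3% and 13.7%), and the CR cells 5 and 2 (23.6% and 15.2%). VEGFD, counted as lower in both Huh7 groups, reached 1 CPM in 4 libraries only, with a mean of 2.56 CPM in Huh7 parental cells. GFRA3, counted as lower in Hep3B-CR cells, reached it in 2 libraries, and no test is read from these genes. Their medians were 0.28, 0.05, 0.40 and 0.31, beside 0.19, 0.07, 0.06 and 0.11 for all genes. No ligand or co-receptor was called the same way in all 4 comparisons.

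VEGFA, the ligand of FLT1 and KDR, was at 82.2 and 73.1 CPM in Huh7 parental, 253 and 175 CPM in Huh7-IR and 142 and 124 CPM in Huh7-CR cells. In Hep3B it was at 71.3 and 57.4 CPM in parental, 368 and 284 CPM in IR and 276 and 225 CPM in CR cells. Every resistant library lay above the parental ones of its line, and VEGFA rose by 1.43 in Huh7-IR cells and, in Hep3B, by 2.32 in IR and 1.95 in CR cells (limma, adjusted p from 0.000274 to 0.0029). In Huh7-CR cells the difference of 0.77 did not pass (limma, adjusted p = 0.0835). In Huh7 DMSO cells the 2 libraries were at 76.4 and 163 CPM and in Hep3B DMSO cells at 73.8 and 130 CPM.

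PDGFC, a ligand of PDGFRA, rose by 0.83 in Huh7-IR and by 1.20 in Huh7-CR cells, in which PDGFRA fell (limma, adjusted p = 0.00994 and 0.00179). It was at 31.8 and 29.4 CPM in Huh7 parental, 76.4 and 39.7 CPM in Huh7-IR and 74.5 and 68.1 CPM in Huh7-CR cells. In Hep3B it did not pass in either comparison, at 147 and 124 CPM in parental cells and 91.5 to 194 CPM in resistant ones. GDF15, the ligand of the RET co-receptor GFRAL, rose in Hep3B by 2.04 in IR and by 2.26 in CR cells (limma, adjusted p = 0.00415 and 0.00188), while GFRAL reached at most 0.064 CPM.

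NRP1, the VEGF co-receptor neuropilin, had the highest mean level of the list, 229 CPM over all libraries, and passed in none of the 4 comparisons. Its Huh7-IR libraries were at 113 and 311 CPM, farther apart than those of any other group. Genes noticed after their values were seen are KITLG, the ligand of KIT, at 11.3 to 58.1 CPM, and GFRA1, a RET co-receptor, at 13.1 to 103 CPM, both expressed in all 16 libraries while KIT and RET were not.

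Of 12 other kinases that Sorafenib is known to inhibit, 8 were tested. In IR cells of Huh7, 7 rose and 0 fell, beside 36% and 21.5% of all genes, and in CR cells 5 and 0, beside 24.5% and 16.8%. In Hep3B, 3 were higher and 1 lower in IR cells (18.3% and 13.7% of all genes) and 3 higher and 0 lower in CR cells (23.6% and 15.2%). DDR2, counted as higher in Huh7-IR and Hep3B-CR cells, reached 1 CPM in 4 libraries only. Its means were 0.453 CPM in Huh7 parental and 0.425 CPM in Hep3B parental cells, and no test is read from it. The medians of the 8 genes were 1.07, 0.85, 0.66 and 0.58, beside 0.19, 0.07, 0.06 and 0.11 for all genes.

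DDR1, a receptor kinase that binds collagen, had the largest change of this list. It was at 5.81 and 4.43 CPM in Huh7 parental, 68.7 and 120 CPM in Huh7-IR and 54.3 and 76.5 CPM in Huh7-CR cells. Hep3B cells held 34.0 and 20.7 CPM in parental, 169 and 120 CPM in IR and 141 and 154 CPM in CR cells. DDR1 rose by 3.92, 3.43, 2.38 and 2.43 (limma, adjusted p from 1.23e-05 to 0.00119), though the Huh7 DMSO libraries were at 5.94 and 19.3 CPM. MAP3K20, the stress kinase ZAK, rose by 1.01 to 1.34 in the 4 comparisons (limma, adjusted p from 2.43e-05 to 0.000459), from 104 to 129 CPM in parental to 218 to 318 CPM in resistant cells. Its Huh7 DMSO libraries were at 202 and 249 CPM.

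Genes whose pattern over the 8 group means of log2(CPM + 1) was most like that of a member were named as a description, since the groups share cell line and exposure. For PDGFRA these were GINS4, a subunit of the replication helicase, MRPL13, a mitochondrial ribosomal protein, and ZGRF1, a helicase, with Pearson's r of 0.985, 0.985 and 0.983 over 8 groups. For FLT1 they were CA4, SOX21 and RIBC2 (0.999, 0.997 and 0.997), with Spearman's rho of 0.833, 0.551 and 0.667. FLT1 was at or near 0 in all groups but Huh7 parental and Huh7 DMSO, which set its r. For PDGFRB they were MDM4, MPZL1 and KLF3-AS1 (0.953, 0.952 and 0.951). For BRAF they were PHPT1, WDR59 and RPL7A (0.979, 0.975 and 0.974) and for ARAF they were STEAP1B, NECAP1 and CADPS2 (0.984, 0.981 and 0.981).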

How the data were processed

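Poly-A+ RNA of 16 libraries was analysed, 2 for each of 8 groups, grouped by their titles. Per the methods and the submitters' processing notes, the authors mapped reads to hg19 with STAR, allowing unique hits only, and counted them over exons of RefSeq genes with QuasR. The deposited CPM table holds counts scaled to the library total by gene ID, and 26111 of its 26258 IDs matched a symbol in RefSeq's gene table. Values were whole multiples of 1 read in 100% of cases, within 0.05 reads, which gave back the reads.

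The log2(CPM + 1) values were fitted with limma 3.58.1 (R 4.3.3, mean-variance trend) as 8 group means, keeping the 15019 genes that reached 1 CPM in 2 or more libraries. Genes were called at a Benjamini-Hochberg adjusted p under 0.05 over all of them. As alternatives the recovered reads were tested with edgeR 4.0.16 (quasi-likelihood) and DESeq2 1.42.0, and the other settings were TMM factors, quantile normalization, pseudocounts of 0.25 and 4 CPM, no filter (23311 genes), a replicate block, the authors' rule (unadjusted p under 0.05 and a log2 change of at least 0.58), a fit of each line alone, DMSO cells as reference, and leaving out each library. Scripts were tested on simulated data. Exact Poisson intervals used SciPy 1.17.1.

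Coordinates of genes are from GENCODE on GRCh37, and promoter windows are RefSeq's on GRCh38.p14. The 9 kinases and the gene lists were chosen with earlier results of these data known. 1 gene of 2 of the lists is not reported here and was left out of their counts. Beside the 9, genes were named if called the same way in all 4 resistant comparisons (at most 4 a list, by mean change), if among the 4 most abundant ligands, or if among the 3 most correlated with a member.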

Additional observations from a re-analysis of the deposited data

Results flagged for a closer look

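PDGFRB and PDGFRA had a mean change in resistant cells that was not the same in the 2 lines by limma's test of the difference. The change of PDGFRB was 2.05 higher in Huh7 on the log2(CPM + 1) scale and that of PDGFRA differed by -2.92. PDGFRA and PDGFRB kept the call in all 21 alternatives. The difference for FLT1, -1.66, was not read as a test, since FLT1 passed the filter only through the untreated Huh7 libraries and the Hep3B libraries held 0 to 8 reads each.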

How the results depend on the processing

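Over all alternatives, 707 values of single kinases kept their side of the threshold, 31 lost the call, 13 gained it and 0 reversed, and of the counts of called kinases 122 stayed within 1.5 times the main count and 29 did not. Against DMSO cells the count was 2 in Hep3B-IR (PDGFRB and BRAF) and 3 in Hep3B-CR cells (PDGFRA, PDGFRB and BRAF), in place of 1 each, with 38.3% and 39.5% of all genes called in place of 32% and 38.8%. Without the filter it was 2 in each, FLT4 being added (20.7% and 25.2% of all genes). In Hep3B-CR cells it was also 2 with quantile normalization and with the line fitted alone (54.2% of all genes), and 1 to 2 with a library left out. In Huh7 DMSO cells it was 1 with edgeR, DESeq2, a pseudocount of 0.25 CPM or the authors' rule, in place of 0 (5.71%, 14.5%, 5.19% and 14.5% of all genes, in place of 5.18%). In Hep3B DMSO cells it was 0 with edgeR, quantile normalization, a pseudocount of 0.25 CPM or no filter, in place of 1 (0.513%, 1.96%, 1.16% and 1.21% of all genes, in place of 1.64%), and 0 to 1 with a library left out. Between Hep3B-CR and Hep3B-IR cells it was 1 with edgeR, TMM factors, quantile normalization, either pseudocount, no filter or the replicate block, in place of 2 (8.22% to 15% of all genes, in place of 13.7%), and 0 to 1 with a library left out. The cause of these differences was not tested.

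At 2 CPM in place of 1, 3 kinases were expressed in Huh7 DMSO cells and 2 in IR cells of Huh7. FLT1 was then also lost in Huh7 parental cells, and PDGFRB in Hep3B-IR cells. At 1 CPM per kb of exon, 3 kinases were expressed in Huh7 DMSO and 2 in each of Huh7-IR, Hep3B-IR and Hep3B-CR cells. Here too FLT1 was lost in Huh7 parental cells, and PDGFRB in Huh7-CR and Hep3B parental cells. FLT1 was thus expressed in no group under either rule. Its lower library was at 1.83 CPM in Huh7 parental and 1.77 CPM in Huh7 DMSO cells, and its highest library at 0.232 CPM per kb of exon. Deviations of replicates with the same number had correlations from -0.22 to 0.44 over 28 pairs of groups, 13 of them over 0.1 and 5 under -0.1, and no source used here says that a number marks a shared culture or batch, so the numbers were not taken as pairs. The replicate block left the count of called kinases at 3, 4, 1 and 1 in the 4 comparisons of resistant with parental cells. KDR, KIT and RET, with 13, 35 and 9 reads in all libraries, were too low to be tested at this depth.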
